A study of Mus musculus with 8 samples.

Results

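The 10 genes described here encode proteins of the AP-1 group that could stand in for c-JUN: the JUN proteins (Jun, Junb, Jund), the FOS proteins (Fos, Fosb, Fosl1, Fosl2) and the related factors Batf, Atf2 and Atf3. They were picked by gene symbol, as the probe set with exactly 1 symbol and the highest mean signal, out of 19937 genes measured in that way. Each of the 10 had 1 such probe set, so all 10 could be followed. The B-lymphoid cells were of mouse, labelled SW129/C57BL/6J for strain, with 4 samples knocked out for c-jun and 4 wild-type samples, on 1 Affymetrix MoGene 1.0 ST array each. In both genotypes the titles of replicates 1 and 2 begin with RO. The titles of replicates 3 and 4 carry a D in the knockout and an F in the wild type. These samples are called the D/F samples here, and the labels leave the meaning of all these letters unsaid. Whatever sets D apart from F cannot be told apart from genotype within the D/F samples. The series title is about lymphoid leukemia induced by the kinase BCR-ABL and about the Cdk6 gene. The labels of the single samples do not give age, sex, how or where c-jun was deleted, whether BCR-ABL was present, or whether the samples of a genotype were separate cultures or animals. The p-values thus weigh the genotype difference against the scatter of these samples, and that scatter may be technical.

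AP-1 is not 1 protein but a set of dimers held together by leucine zippers. JUN proteins can pair with each other or with FOS proteins, while FOS proteins need a JUN partner to bind DNA well. The dimers bind short DNA elements, chiefly the one read TGACTCA, and dimers with ATF proteins favour the related cAMP-response type of element. In mice JUNB can take over part of the work of c-JUN in development, although in many cells it acts against c-JUN on genes of the cell cycle, and BATF lacks a transactivation domain and is best known in B and T cells as a partner of JUN proteins and IRF4. The comparison of genotypes asks here whether the transcript of any of these partners or relatives was higher where Jun was low.

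Values are log2 signals, so a step of 1 is a 2-fold change. The array medians ran from 6.93 to 7.42, and the Pearson correlation between arrays over all probe sets from 0.951 to 0.979. Across all genes the median difference, knockout minus wild type, was -0.11 (log2), and 72% of the 19937 genes had a negative difference. That share was 56.5% after quantile normalization and 39.7% with arrays centred on their medians, so the leading direction over all genes turned with the scaling. All 11 measured B-lymphoid markers had a mean signal at or above that of the median gene. Cd79a, a chain of the B-cell receptor complex, was at 13.18 to 13.30 in knockout samples and 13.02 to 13.20 in wild-type samples. Igll1 was at 13.82 to 14.04 in knockout and 13.96 to 14.21 in wild-type samples. Not all of these markers were steady: Rag1 ran from 8.00 to 10.43 in knockout and 6.17 to 9.80 in wild-type samples. Rag2 ran from 6.63 to 9.49 in knockout and 5.69 to 8.63 in wild-type samples, and lay below the array median on 4 of 8 arrays. Of the marker lists for other cells, 6 of 10 myeloid, 4 of 9 T and NK, 2 of 6 erythroid and megakaryocyte and 5 of 10 stromal genes lay below the array median on every array. So did 7186 of all 19937 genes, and these counts alone do not show that such cells were absent. The mean level of the myeloid list was 6.76 to 6.92 in knockout and 6.59 to 7.24 in wild-type samples. The highest single signals of these lists were those of Lyz2, Cd2, Klrb1c and Fn1. Some other listed genes, such as the stromal Col3a1 at 7.31 to 8.12, also lay above the array median on every array. Lyz2, of myeloid cells, was at 7.44 to 10.64 in knockout and 8.33 to 9.93 in wild-type samples. Cd2, from the T and NK list, was high in all samples, at 11.39 to 12.07 in knockout and 11.72 to 12.00 in wild-type samples. Whether Cd2 marks T and NK cells in these samples was not tested. Klrb1c, an NK receptor gene, was at 8.93 in knockout replicate 4 and 10.54 in wild-type replicate 3, and between 5.73 and 6.78 on the other arrays. Fn1, of stromal cells, was at 10.22 and 10.06 in knockout replicates 2 and 3 and 9.34 in wild-type replicate 2, and between 6.85 and 7.27 on the other arrays.

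**Figure D1:**
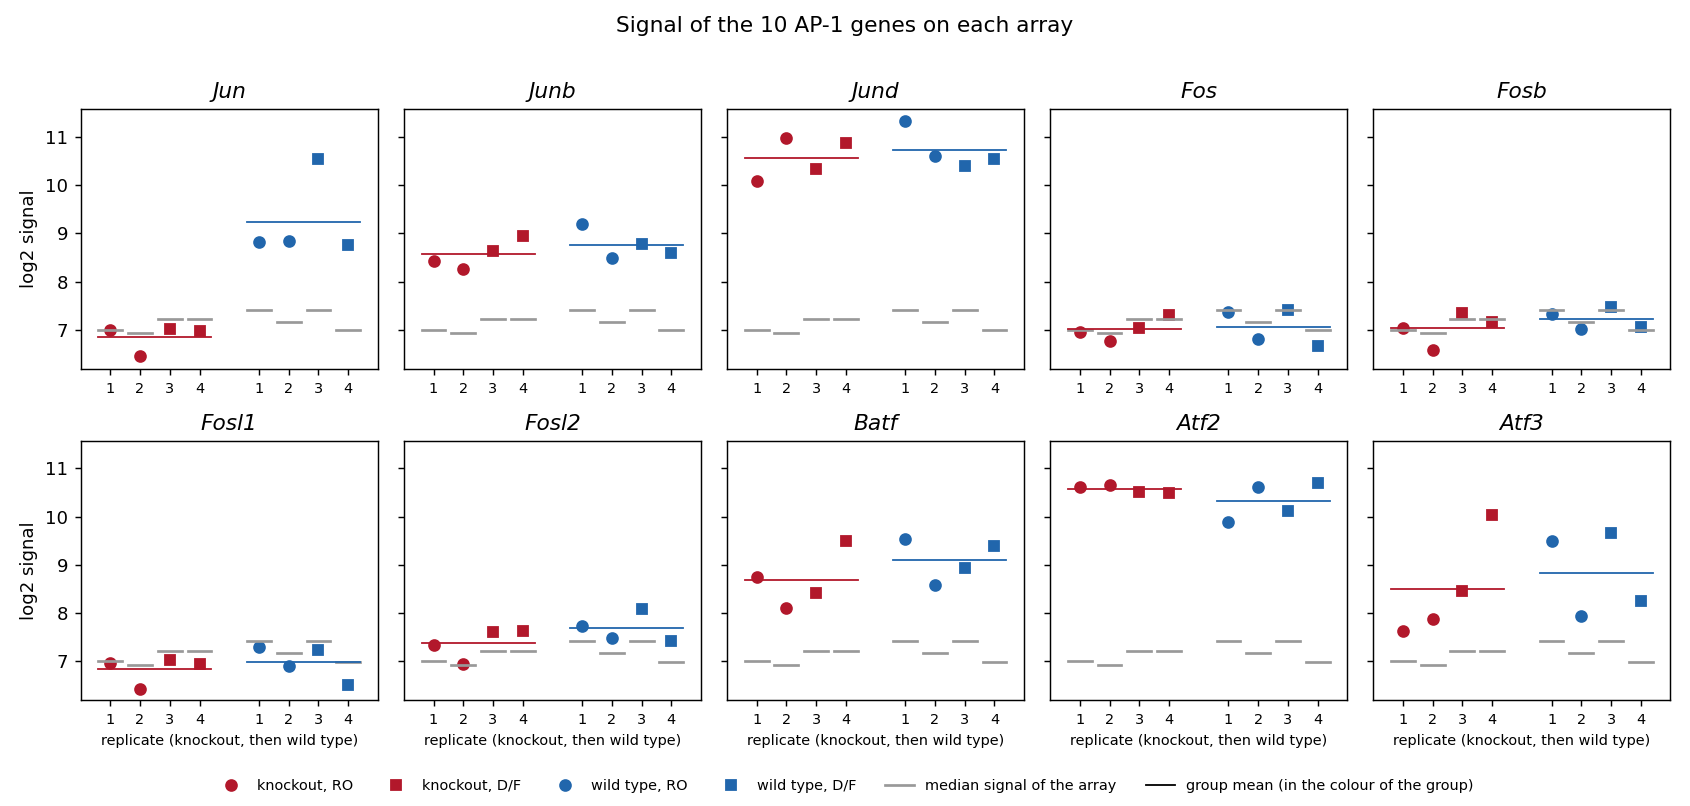
Log2 signal (y axis) of each of the 10 AP-1 genes in knockout replicates 1 to 4 and wild-type replicates 1 to 4 (x axis). Circles are RO samples, squares D/F samples, coloured lines group means and grey bars the median signal of that array. The groups are apart for Jun, from 6.46 to 7.02 in knockout and from 8.77 to 10.55 in wild-type samples, and overlap in the other 9 panels.

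Jun, the targeted gene, was low in every knockout sample. Its probe set (10514466) gave 6.99, 6.46, 7.02 and 6.97 in knockout replicates 1 to 4, against 8.82, 8.84, 10.55 and 8.77 in wild-type replicates 1 to 4. The 4 knockout values lay below the median of their own arrays, replicate 2 the lowest, and 1 wild-type sample, replicate 3, stood well above the other wild-type samples. That sample was also the one with Klrb1c at 10.54, and its part in the Jun level was not tested. The mean was 6.86 ± 0.27 in knockout and 9.25 ± 0.87 in wild-type samples (SD, n = 4 each), a difference of -2.38 (SE 0.32, 95% interval -3.09 to -1.68). With all 70 ways to split the arrays into 4 and 4, the exact permutation test (2-sided) gave p = 0.0286, its smallest possible value. In the limma fit over all genes, with the title series as a term, Jun ranked 2 by p, and the Benjamini-Hochberg adjusted p was 0.106. Without wild-type replicate 3 the difference was -1.97 and the limma adjusted p 0.00684. The limma adjusted p was 8.47e-05 among the D/F samples alone and 0.0195 among the RO samples alone, 2 samples against 2. In the D/F samples the wild-type Jun values were 10.55 and 8.77, while the moderated SE was 0.36. That p-value thus leans on the variance that limma shares over all genes, not on the scatter of Jun alone. The labels do not say which part of Jun was removed, so whether the probes lie inside it is not known.

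Over the 8 arrays, none of the other 9 genes was called higher or lower in the knockout. In the fit over all genes 0 of the 10 AP-1 genes passed an adjusted p of 0.05, where 0.00502% of all genes did (1 gene, lower in the knockout). At an unadjusted p under 0.05 there was 1 of the 10, Jun, beside 2.25% of all genes (1.72% lower and 0.537% higher in the knockout). Jun was also the 1 member with every knockout sample below every wild-type sample, which held for 1.03% of all genes, and 0 members had every knockout sample above, beside 0.266% of all genes. Besides Jun, 8 members had a negative difference and 1, Atf2, a positive one. Over all 10 that is 9 lower and 1 higher, against 7 lower and 3 higher under either other scaling. The median over the 10 was -0.19, beside -0.11 over all genes. Relative to that shift of all genes, Jun was at -2.27, Batf at -0.30, Atf2 at 0.35 and Fos at 0.07. In bulk RNA of this kind, fewer cells of a type and less RNA per cell cannot be told apart.

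The size of a rise in signal that these 8 arrays leave room for can be read from the 95% intervals. Over the 9 other members the upper ends ran from 1.09-fold (Fosl2) to 1.57-fold (Atf3) with the values as deposited. They ran from 1.06-fold (Fosl2) to 1.79-fold (Atf3) after quantile normalization and from 1.06-fold (Fosl2) to 2.09-fold (Atf2) with each array centred on its median. Jun was 5.22-fold lower in the knockout by these signals, but its knockout values lie at or below the array median, where background can set the signal, so that fold is not an exact measure. The upper ends are limits for the signal of each gene. Fos, Fosb and Fosl1 also lie near the array median, and Fosl2 ran from 0.01 to 0.68 above it. For these genes the upper ends may not bound the transcript, and that was not tested. The arrays hold no values for protein or its activity.

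**Figure D2:**
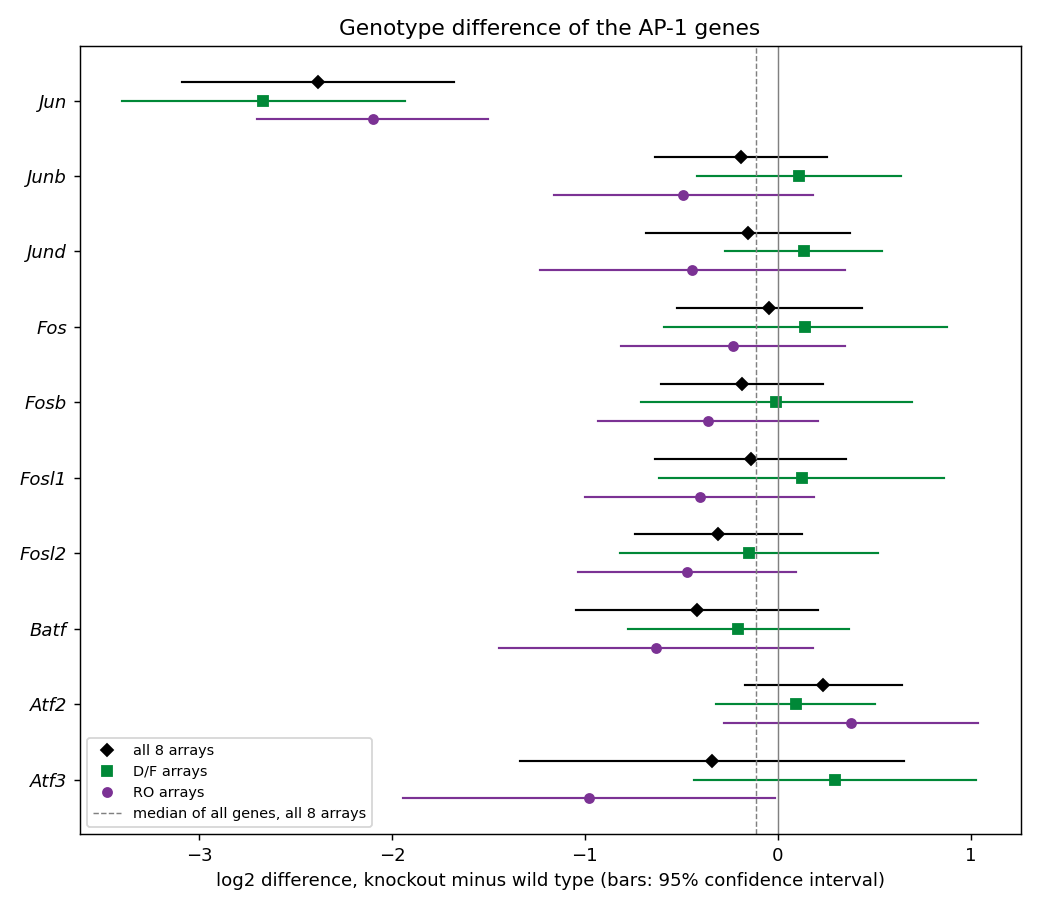
Log2 difference, knockout minus wild type (x axis), of each AP-1 gene (y axis) over all 8 arrays (diamonds), the D/F arrays (squares) and the RO arrays (circles), with 95% confidence intervals. The solid line marks 0 and the dashed line the median of all genes (-0.11). The 3 Jun intervals lie wholly below 0, and 0 lies inside the intervals of the other 9 genes over all 8 arrays.

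Among the JUN proteins, JUNB is the member most often set against c-JUN, and its gene is induced rapidly by growth signals. Junb (probe set 10580282) was at 8.43, 8.27, 8.64 and 8.95 in knockout replicates 1 to 4, against 9.19, 8.49, 8.78 and 8.59 in wild-type replicates 1 to 4. The groups overlapped across most of their range, with the highest value in wild-type replicate 1 and the lowest in knockout replicate 2. The difference was -0.19 (SE 0.20, interval -0.63 to 0.26; exact permutation p = 0.429). It was 0.01 without wild-type replicate 1. Measured against the median of its own array, Junb held a narrow band of 1.34 to 1.73 in knockout and 1.32 to 1.77 in wild-type samples, and its SD over the 8 arrays was 0.18 on that scale and 0.30 as deposited.

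JUND is the JUN protein that is made steadily in most resting cells. Jund (probe set 10572456) was at 10.08, 10.97, 10.34 and 10.89 in knockout replicates 1 to 4, against 11.34, 10.60, 10.41 and 10.55 in wild-type replicates 1 to 4. Within each genotype the samples differed by more than the genotypes did, since the difference of the means was -0.15 (SE 0.24, interval -0.68 to 0.37; exact permutation p = 0.629). The sign depended on single arrays and on their weighting: it turned to 0.08 when knockout replicate 1 was dropped, to 0.05 when wild-type replicate 1 was, and to 0.04 when arrays were weighted by quality. Centred on array medians, the Jund difference came to -0.00069.

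FOS, FOSB, FRA-1 (Fosl1) and FRA-2 (Fosl2) are the partners that JUN proteins need for their strongest DNA binding, and Fos and Fosb are classic immediate-early genes with short-lived transcripts. Fos (probe set 10397346) was at 6.95, 6.77, 7.04 and 7.31 in knockout replicates 1 to 4 and at 7.37, 6.81, 7.41 and 6.66 in wild-type replicates 1 to 4. It lay below the array median on 7 of 8 arrays, and Fosl1 (probe set 10460585) did so on all 8. Fosl1 ran from 6.43 to 7.04 in knockout and from 6.50 to 7.30 in wild-type samples, and Fosb (probe set 10560481) from 6.59 to 7.35 in knockout and from 7.02 to 7.47 in wild-type samples. These 3 genes stayed within 0.50 of the array median on every array, so much of their movement between arrays followed the median itself. Their SD over the 8 arrays was 0.29 (Fos), 0.27 (Fosb) and 0.31 (Fosl1) as deposited, and 0.16, 0.15 and 0.16 relative to the array median. How far such dim signals report the transcript was not tested.

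The genotype differences of these 3 were -0.04 for Fos (SE 0.22, exact permutation p = 0.857), -0.18 for Fosb (SE 0.19, p = 0.457 by the exact permutation test) and -0.14 for Fosl1 (SE 0.23, exact permutation p = 0.543). For Fos and Fosl1 the sign turned with the scaling, to 0.11 and 0.01 with arrays centred on their medians. Fosl2 (probe set 10520862) was at 7.33, 6.94, 7.60 and 7.62 in knockout replicates 1 to 4, against 7.73, 7.48, 8.09 and 7.43 in wild-type replicates 1 to 4. The knockout values lay lower on average, but replicates 3 and 4 lay above wild-type replicates 2 and 4. Its difference, -0.31 (SE 0.20, interval -0.74 to 0.12; exact permutation p = 0.286), had the lowest upper end of the 9 and was negative in each of the 20 alternative fits run. Several of those fits, such as the ones that change only the eBayes options, return the same estimate and could not turn its sign. Relative to the array median the Fosl2 difference was -0.16 (SE 0.11).

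BATF and the ATF proteins extend the family beyond JUN and FOS. Batf (probe set 10397359) was at 8.74, 8.10, 8.41 and 9.50 in knockout replicates 1 to 4, against 9.53, 8.57, 8.93 and 9.39 in wild-type replicates 1 to 4. Knockout replicate 4 was nearly as high as the highest wild-type sample, and the other knockout samples fell among or below the wild-type values. The difference was -0.42 (SE 0.29, interval -1.04 to 0.21; exact permutation p = 0.286), and it ran from -0.68 without knockout replicate 4 to -0.18 without wild-type replicate 1. Atf2, whose product pairs with c-JUN and is switched on by phosphorylation through the JNK and p38 kinases, was the 1 member with a higher mean in the knockout. Its probe set (10483737) gave 10.61, 10.65, 10.51 and 10.49 in knockout replicates 1 to 4, against 9.90, 10.61, 10.12 and 10.70 in wild-type replicates 1 to 4. The knockout samples lay within a narrow band, and wild-type replicates 1 and 3 were the low ones. The Atf2 difference was 0.24 (SE 0.19, interval -0.17 to 0.65; exact permutation p = 0.371). It was 0.39 with arrays centred on their medians, 0.07 without wild-type replicate 1, and positive in each of the 20 alternative fits. As for Fosl2, several of those fits return the same estimate and could not turn its sign.

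Atf3, a stress-induced gene whose product can bind AP-1 sites with JUN proteins and often represses, varied most after Jun. Its probe set (10361091) gave 7.62, 7.87, 8.46 and 10.04 in knockout replicates 1 to 4, against 9.50, 7.94, 9.66 and 8.25 in wild-type replicates 1 to 4. High values thus occurred in both genotypes, in knockout replicate 4 and in wild-type replicates 1 and 3, and the highest array was 5.36 times the lowest on the linear scale. The spread of Atf3 over the 8 arrays (SD 0.93) exceeded that of 98.5% of all genes, and that of Jun (SD 1.41) exceeded 99.7%. The difference between genotypes was -0.34 (SE 0.45, interval -1.34 to 0.65; exact permutation p = 0.714). It was 0.10 without wild-type replicate 1 and -0.78 without knockout replicate 4.

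Some genes shared the high arrays of Atf3. Ppp1r15a, which encodes GADD34, a phosphatase subunit of the integrated stress response, was among the 3 genes whose pattern was most like that of Atf3 (Pearson r = 0.965 over 8 arrays, out of 9512 genes of at least median signal). It was at 7.74, 7.85, 8.27 and 8.87 in knockout replicates 1 to 4 and at 8.74, 7.95, 8.48 and 7.93 in wild-type replicates 1 to 4. The next genes were chosen after their values were seen. Ddit3, which encodes the stress factor CHOP, was at 8.07, 8.01, 8.33 and 10.04 in knockout replicates 1 to 4 and at 9.54, 7.91, 9.20 and 7.98 in wild-type replicates 1 to 4. Atf4, the main transcription factor of that response, was at 10.25, 10.38, 10.78 and 11.50 in knockout replicates 1 to 4 and at 11.13, 10.03, 10.80 and 10.16 in wild-type replicates 1 to 4. Jdp2, which encodes a repressor that pairs with JUN proteins, was at 8.03, 7.92, 7.33 and 9.06 in knockout replicates 1 to 4 and at 8.82, 7.97, 9.34 and 7.51 in wild-type replicates 1 to 4. Knockout replicate 4 and wild-type replicates 1 and 3 held the 3 highest values of each of these genes. Other genes of the unfolded protein response did not share that order: Xbp1 was highest in wild-type replicate 1 (12.59) and knockout replicate 3 (11.66), and Atf6 in knockout replicate 4 (10.04) and wild-type replicate 4 (10.03). Between genotypes these 4 genes did not pass, with limma adjusted p-values of 0.924 (Ppp1r15a), 0.980 (Ddit3), 0.878 (Atf4) and 0.878 (Jdp2). Wild-type replicates 1 and 3 also had the highest array medians, 7.41 and 7.42, while that of knockout replicate 4 was 7.22. Klrb1c, too, was high in knockout replicate 4 and wild-type replicate 3, but not in wild-type replicate 1 (6.08). The part of other cells, of array level or of the state of the cells in this pattern was not tested.

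**Figure D3:**
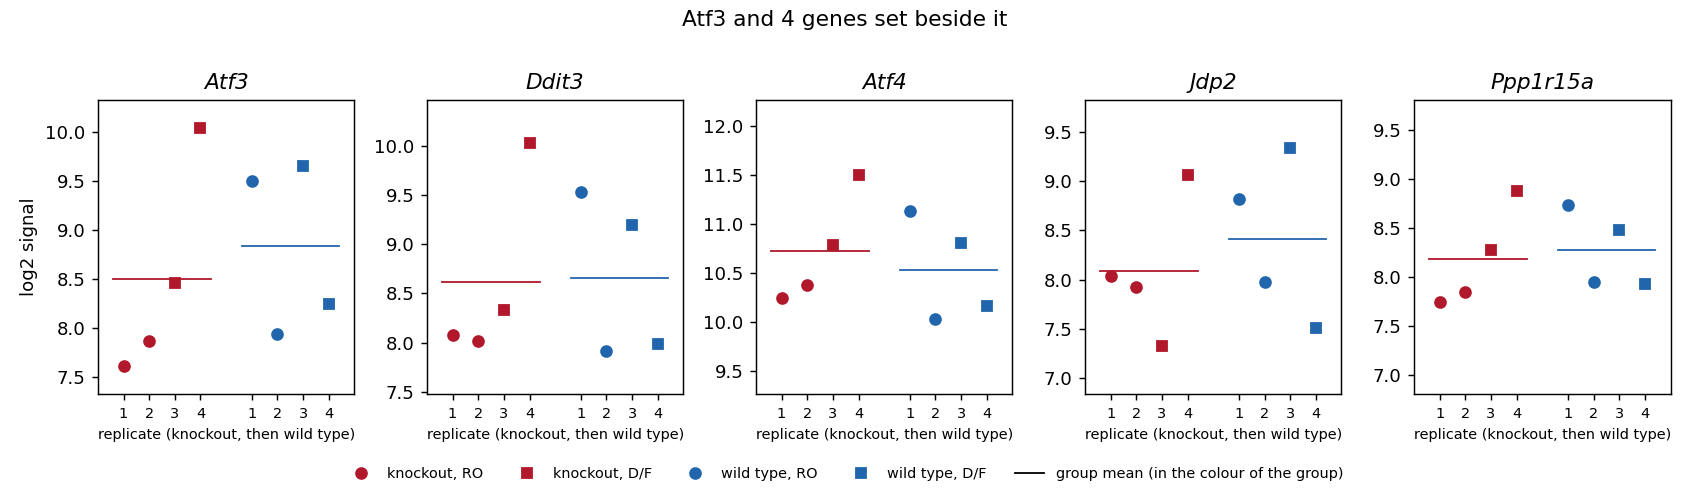
Log2 signal (y axis, 3 units high in every panel) of Atf3, Ddit3, Atf4, Jdp2 and Ppp1r15a in knockout replicates 1 to 4 and wild-type replicates 1 to 4 (x axis), with group means as lines. Knockout replicate 4 and wild-type replicates 1 and 3 are the high arrays in each panel, with Atf3 at 10.04, 9.50 and 9.66.

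The genotype difference was then taken within each title series, 2 samples against 2. With so few samples, these p-values lean on the variance that limma shares over all genes. The letter D or F goes with genotype in the D/F samples. Any other difference between D and F samples cannot be told apart from genotype there. In the D/F samples Jun passed the adjustment, 1 of 10 members beside 0.396% of all genes, with a difference of -2.67. Unadjusted, it was again the 1 member under 0.05, beside 3.8% of all genes, and the other 9 differences lay between -0.20 (Batf) and 0.30 (Atf3). In the RO samples Jun also passed, 1 of 10 beside 0.161% of all genes, with a difference of -2.10. Atf3 was at -0.98 there, with an interval of -1.94 to -0.01 that just left out 0, although its limma adjusted p was 0.397. Unadjusted, 2 of the 10 members, Jun and Atf3, lay under 0.05 in the RO samples, beside 12.3% of all genes.

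Of the 9 members other than Jun, 3 were lower by mean in the D/F knockout samples and 8 in the RO knockout samples. The same shift ran through all genes, of which 47.6% had a negative difference among D/F samples and 73.5% among RO samples. Junb was at 0.11 in D/F and -0.49 in RO samples, and Jund at 0.13 in D/F and -0.44 in RO samples. Fos was at 0.14 in D/F and -0.23 in RO samples, and Fosl1 at 0.12 in D/F and -0.40 in RO samples. Fosb had -0.01 in D/F and -0.36 in RO samples, Fosl2 had -0.15 in D/F and -0.47 in RO samples, and Batf had -0.20 in D/F and -0.63 in RO samples. Atf2 had 0.09 in D/F and 0.38 in RO samples. By sign alone, 4 of the 10 members were lower in the knockout in both title series, beside 32.6% of all genes, and 5 had opposite signs, beside 55.9%. None of these contrasts between title series stood up to its own test: the interaction of genotype and title series was called for 0 of 10 members, beside 0.0301% of all genes, and unadjusted for 0 of 10 beside 5.38%. The limma interaction of Junb was 0.60 (SE 0.38, adjusted p = 0.716) and that of Atf3 1.27 (SE 0.86, adjusted p = 0.716).

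Irrespective of genotype, the D/F samples were not called different from the RO samples for any member (0 of 10, beside 0.0201% of all genes; unadjusted 0 of 10, beside 3.12%). By mean, 8 of the 9 members other than Jun were higher in D/F samples and 1, Jund, was lower. Atf3 had the largest of these differences, with 9.10 in D/F and 8.24 in RO samples (0.87, SE 0.45). Junb was at 8.74 in D/F and 8.60 in RO samples (0.15, SE 0.20). How many of all genes were higher in D/F samples was not counted. In the knockout the array medians were 7.22 and 7.22 in D/F and 7.01 and 6.93 in RO samples. In the wild type they were 7.42 and 6.99 in D/F and 7.41 and 7.17 in RO samples. The part of array level in the count of members was not tested.

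No pooled correlation with the Jun level is given, because the arrays form separate clusters of 4, at 6.46 to 7.02 (knockout) and 8.77 to 10.55 (wild type). A common slope within the genotypes was not fitted, and the levels are set side by side as a description. Within the wild type, replicates 1, 2 and 4 lay close together in Jun (8.82, 8.84 and 8.77), and over these arrays Junb still ran from 8.49 to 9.19, Jund from 10.55 to 11.34 and Atf3 from 7.94 to 9.50. In wild-type replicate 3, where Jun was highest, Fos (7.41), Fosb (7.47) and Fosl2 (8.09) had their highest values of the 8 arrays. For Fosl2 this was also so relative to the array median, 0.68 in that sample and at most 0.44 in the other 7. For Fos and Fosb it was not so: they were at -0.01 and 0.05 against the median of that array. Junb, Jund, Fosl1 and Batf were highest in wild-type replicate 1, at 9.19, 11.34, 7.30 and 9.53, where Jun was at 8.82. In knockout replicate 2, with the lowest Jun signal, 5 other members were at their lowest (Junb, Fosb, Fosl1, Fosl2 and Batf), and that array also had the lowest median, 6.93. Jund (10.97) and Atf2 (10.65) went the other way there, each at the highest of its knockout values.

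**Figure D4:**
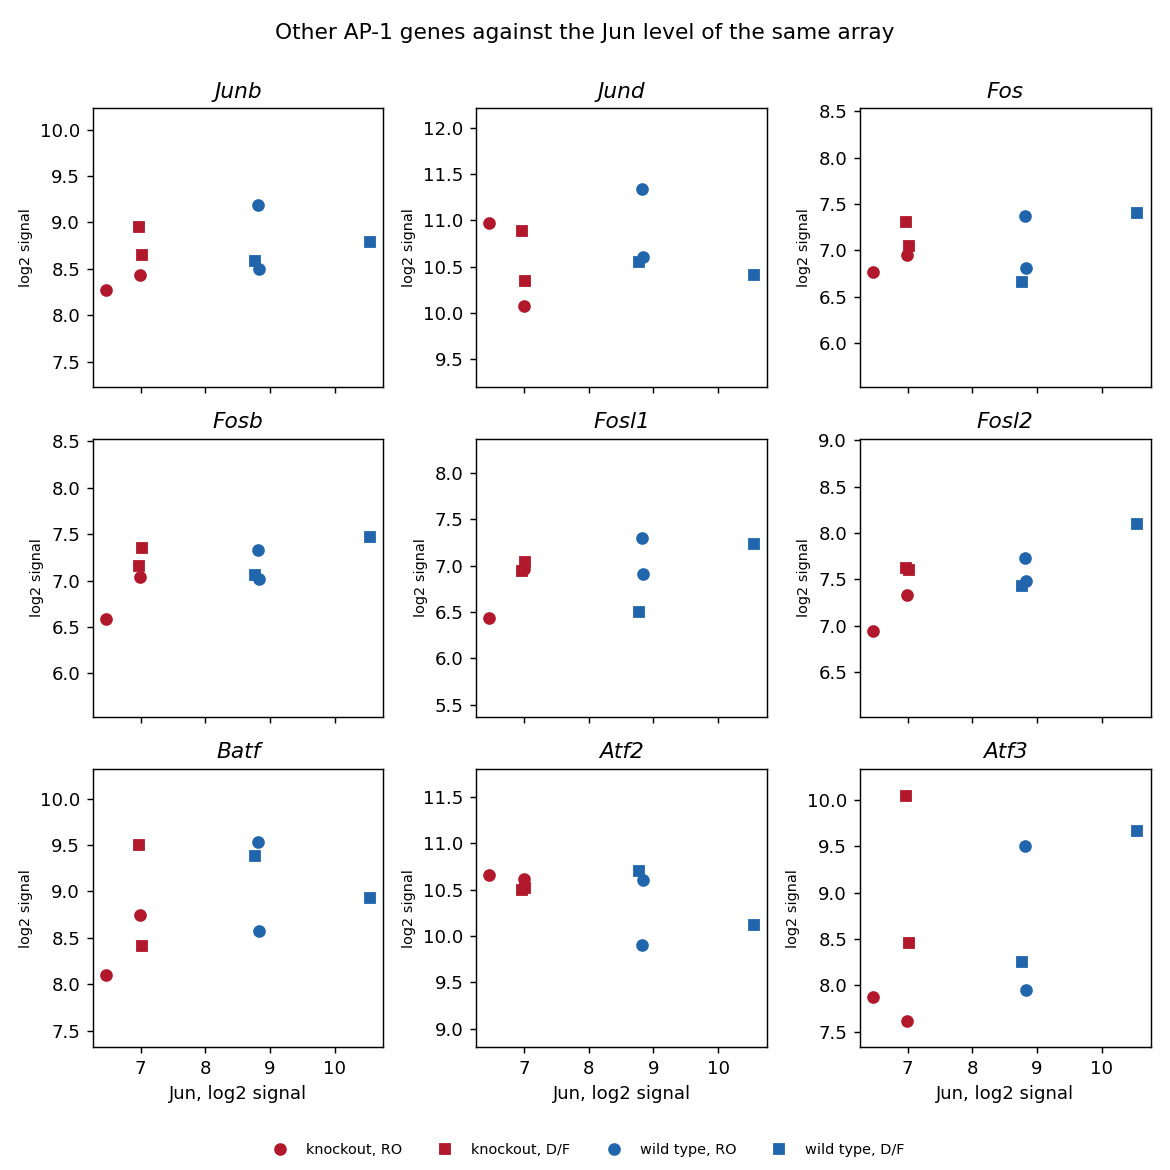
Log2 signal of each of the 9 other AP-1 genes (y axis, 3 units high in every panel) against the Jun signal of the same array (x axis), for knockout (red) and wild-type (blue) samples of the RO (circles) and D/F (squares) titles. The samples form separate clusters along the Jun axis, and the levels of each gene overlap between them. Atf2 runs from 10.49 to 10.65 in knockout and from 9.90 to 10.70 in wild-type samples.

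The genes with the profile most like that of Jun over the 8 arrays, as a description, were Mdfi, an inhibitor of MyoD family proteins (r = 0.994), Tln1, which encodes the integrin adaptor talin 1 (r = 0.932), and Cntrob, which encodes a centriole protein (r = 0.929). Mdfi was at 7.74, 7.50, 7.77 and 7.80 in knockout replicates 1 to 4 and at 8.32, 8.42, 8.95 and 8.44 in wild-type replicates 1 to 4, so that its highest array was that of Jun, too. For Jund the nearest profiles were those of Tbx19, a T-box transcription factor gene (r = 0.967), Trmt61a, for a tRNA methyltransferase subunit (r = 0.940), and Srprb, for a subunit of the signal recognition particle receptor (r = 0.931). For Batf they were Dennd6b (r = 0.975), Slc44a2, a choline transporter-like gene (r = 0.963), and Entpd6 (r = 0.959). For Atf3 they were P2rx3, an ATP-gated channel gene (r = 0.977), Ccdc116 (r = 0.974) and Ppp1r15a. The points of these correlations share their arrays and scaling, and for Jun they form separate clusters; the part of array level in them was not tested.

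Because AP-1 genes are known to be controlled in part by AP-1 and ATF dimers at their own promoters, the 250 bases before the start of each member were read for 3 elements, on both strands. The elements were TGACTCA, which AP-1 dimers favour, TGACNTCA, which covers the cAMP-response type and its variants, and TGACGT, the core of the cAMP-response type, which overlaps TGACNTCA where N is G. RefSeq promoters of build GRCm38.p6 were matched for 9 of the 10 members; Fosl1 is named only. TGACTCA was found in 0 of 9 members, beside 4.46% of 32851 promoters of that length, TGACNTCA in 1 of 9 beside 7.49%, and TGACGT in 3 of 9 beside 6.47%. The 4 promoters with a match are printed 5′ to 3′ in lower case, with the matches in capitals, to show where the elements stand in the targeted gene and in 3 of its relatives.
Jun (chr4:95052223-95052472, minus strand): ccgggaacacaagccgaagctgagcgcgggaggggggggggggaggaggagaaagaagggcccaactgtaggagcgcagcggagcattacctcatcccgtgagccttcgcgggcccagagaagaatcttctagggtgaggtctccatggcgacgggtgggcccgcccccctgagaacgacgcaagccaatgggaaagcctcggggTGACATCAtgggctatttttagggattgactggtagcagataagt
Fos (chr12:85473640-85473889, plus strand): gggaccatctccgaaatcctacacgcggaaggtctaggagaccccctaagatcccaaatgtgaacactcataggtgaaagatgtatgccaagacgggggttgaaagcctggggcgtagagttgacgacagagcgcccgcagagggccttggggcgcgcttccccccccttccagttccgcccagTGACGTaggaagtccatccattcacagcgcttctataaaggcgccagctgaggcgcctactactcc
Batf (chr12:85686470-85686719, plus strand): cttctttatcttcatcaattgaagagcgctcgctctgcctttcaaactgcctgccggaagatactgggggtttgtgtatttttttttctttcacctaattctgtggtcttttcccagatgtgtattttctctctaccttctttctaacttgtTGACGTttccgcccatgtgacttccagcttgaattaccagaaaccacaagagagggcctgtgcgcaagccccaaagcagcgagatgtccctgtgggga
Atf3 (chr1:191183334-191183583, minus strand): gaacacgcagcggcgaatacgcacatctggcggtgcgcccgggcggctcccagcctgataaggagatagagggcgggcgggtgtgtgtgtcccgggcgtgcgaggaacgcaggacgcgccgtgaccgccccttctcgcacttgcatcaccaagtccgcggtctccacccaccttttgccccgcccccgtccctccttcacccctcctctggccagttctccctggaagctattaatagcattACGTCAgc
The Jun match, TGACATCA, spans 45 to 38 bases before the start and has A at the variable place. The Fos match spans 66 to 61, the Batf match 98 to 93 and the Atf3 match, ACGTCA on the printed strand, 8 to 3 bases before the start. Of the 3 relatives, Fos, Batf and Atf3 had differences of -0.04, -0.42 and -0.34 between genotypes, all with intervals that include 0. A match is only a run of letters, and no binding was measured.

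Fos, Jdp2 and Batf stand next to each other on chromosome 12 in the order of protein-coding genes of the same assembly. Across the 8 arrays these neighbours differed in profile: the highest arrays were wild-type replicate 3 for Fos (7.41) and Jdp2 (9.34) and wild-type replicate 1 for Batf (9.53), and the lowest were wild-type replicate 4 for Fos (6.66), knockout replicate 3 for Jdp2 (7.33) and knockout replicate 2 for Batf (8.10).

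Beyond the 10 genes, the wider family of leucine-zipper genes was read in the same fit. Of 34 measured members of a list of other such genes, 0 passed in either direction, beside 0.00502% of all genes. With a share that small, 0 calls in a list of this size say little about its members. By mean 24 were lower and 10 higher, beside 72% of all genes lower. The median was -0.13, beside -0.11 for all genes. The smallest p-values were those of Cebpb, a C/EBP factor of inflammation and of myeloid cells, at -0.32 (SE 0.21), Hlf at -0.24 (SE 0.18) and Bach2, a repressor of B-cell differentiation into plasma cells, at 0.18 (SE 0.14), each with a limma adjusted p of 0.878. Batf3, a relative of Batf, was at -0.06 (SE 0.20).

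The kinases and transcription factors that switch on Jun and Fos were read next. Of 15 measured members 0 passed, beside 0.00502% of all genes. By mean 7 were lower and 8 higher, beside 72% of all genes lower, and the median was 0.13, beside -0.11. Mapk7, which encodes ERK5, was at -0.31 (SE 0.16), and Elk3, an ETS factor that binds serum response elements, at 0.19 (SE 0.13). Mapk8, which encodes JNK1, the kinase named for its action on c-JUN, was at 0.21 (SE 0.17). Among genes for turnover and partners of AP-1 proteins, 0 of 15 passed, beside the same 0.00502%. By mean 7 were lower and 8 higher, beside the same 72% lower, and the median was 0.01. Cop1, a ubiquitin ligase gene whose product marks c-JUN for destruction, was at 0.35 (SE 0.20), with 9.75, 10.02, 9.84 and 9.77 in knockout replicates 1 to 4, against 9.08, 9.87, 9.23 and 9.80 in wild-type replicates 1 to 4. Wild-type replicates 1 and 3 were the low ones, as they were for Atf2. Nfatc1 was at -0.26 (SE 0.20) and Trib1, a scaffold for COP1, at -0.28 (SE 0.23).

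Immediate-early genes, which are induced together with Fos and Junb when cells are stimulated or handled, gave 0 calls among 16 measured members. The share called was 0.00502% over all genes. By mean 11 were lower and 5 higher, beside 72% of all genes lower, and the median was -0.16, beside -0.11. At an unadjusted p under 0.05 there was 1 of 16, lower, beside 1.72% of all genes lower and 2.25% in either direction. This was Ier5, at 8.58, 8.24, 8.24 and 8.23 in knockout replicates 1 to 4, against 8.70, 8.42, 8.88 and 8.87 in wild-type replicates 1 to 4 (-0.40, SE 0.17, limma adjusted p = 0.878). Egr2 had -0.35 (SE 0.19) and Ier3 -0.28 (SE 0.21). The mean level of the 16 genes ran from 8.26 to 8.66 in knockout and from 8.31 to 8.80 in wild-type samples, so the genotypes overlapped in this mean. Whether it reports stimulation or handling of the cells was not tested.

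Cdk6, the G1 kinase gene named in the series title, had 9.69, 8.66, 10.11 and 6.79 in knockout replicates 1 to 4, against 11.11, 11.00, 11.50 and 11.58 in wild-type replicates 1 to 4. Every knockout sample lay below every wild-type sample, as for Jun, with a difference of -2.48 (SE 0.56), although the limma adjusted p was 0.878. Within the knockout, replicate 4 had the lowest Cdk6. It also had the highest Junb (8.95), Fos (7.31), Fosl2 (7.62), Batf (9.50) and Atf3 (10.04) of the 4 and the lowest Atf2 (10.49). Its Jun (6.97) was close to that of replicates 1 and 3. Fosb (7.35) and Fosl1 (7.04) were highest in replicate 3, and Jund (10.97) in replicate 2. Replicate 2, next lowest in Cdk6 (8.66), had the lowest Junb (8.27), Fos (6.77), Fosb (6.59), Fosl1 (6.43), Fosl2 (6.94) and Batf (8.10) of the 4. No relation of these genes to Cdk6 was tested.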

How the data were processed

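Per the labels' protocols, total RNA was extracted with Trizol, cleaned on a Qiagen column, primed with random hexamers, amplified and labelled with biotin. The authors deposited log2 signals for 34760 probe sets, 1 column per sample, and MAS5 is the tool named, per the submitters' processing notes. That method relies on mismatch probes, which this array type does not have, so how the signals were summarized is uncertain; no settings are given. The log base and the scaling follow from the numbers: the linear mean of each array, with 2% trimmed at each end, was 500, which leaves array medians free to differ. No detection calls were used, so dim signals carry no bound.

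Gene symbols came from the platform's annotation table (21640 with 1 symbol, 1321 with several, 11799 with none). The values were fitted as deposited with limma 3.58.1 in R 4.3.3 (lmFit, eBayes with trend; genotype and title series as terms, 5 residual degrees of freedom) over 19937 genes, with Benjamini-Hochberg adjustment at 0.05, and SEs and 95% intervals are those of the moderated fit. Each member also had a 2-sided exact permutation test without the title series. In simulated data of the same 19937 genes, 200 genes were changed up or down. Noise was drawn for each gene on its own, with no shift of whole arrays. There the fit called 59.5% of genes changed by 1 log2 unit and 95.5% of those changed by 2. These shares do not carry over to the real fit, which called 1 gene and neither Jun (-2.38) nor Cdk6 (-2.48). Arrays have no read depth; their number limits the precision. Replicates were numbered by order in the record, which names them only.

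The members, lists and tests were chosen with earlier results of these data known. Named by rule were the 10 members, up to 3 genes of smallest p in each other list, and the 3 genes of highest Pearson r with Jun and with the 3 other members of largest SD; Cd79a, Cd2, Klrb1c, Batf3, Ddit3, Atf4, Xbp1, Atf6 and Jdp2 were added after their values were seen. Alternatives changed the title series term, the scaling, the filter on dim genes, the probe sets, the eBayes options and array weights, used 1 title series alone, or left out each array. Pseudocounts do not apply to log2 values. No genome build is given for that table, so chromosome coordinates are printed only for RefSeq promoters.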

Additional observations from a re-analysis of the deposited data

Results flagged for a closer look

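The signal of 1 sample stood far from the rest of its group in 3 of 20 groups of 4 (10 genes in each genotype), by the gap to its neighbour relative to the range of the group. Chance alone gives such a gap in about 1 in 20 groups. Jun was at 10.55 in wild-type replicate 3, with the next at 8.84. Jun was at 6.46 in knockout replicate 2, with the next at 6.97, and Fosl1 was at 6.43 in the same sample, with the next at 6.94. That array has the lowest median (6.93), and the other arrays range up to 7.42. Relative to the array median, knockout replicate 2 was at -0.47 for Jun, with the next at -0.25. For Fosl1 it was at -0.50, with the next at -0.28. It was thus the lowest of the knockout samples in both, but by narrower gaps. The gap rule was applied to the values as deposited only, so these 2 flags may not hold on that scale. The cause was not tested.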

How the results depend on the processing

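No paired analysis was possible because the labels carry no replicate numbers. For Jun the direction held in all 20 alternatives, with limma adjusted p-values from 8.47e-05 to 0.843. Several alternatives, such as those that change only the eBayes options, return the same estimate for a member and could not turn its sign. Jun passed with array weights (-2.71, limma adjusted p 0.0206), in RO samples alone (-2.10, 0.0195) and in D/F samples alone (-2.67, 8.47e-05). The fits of a title series alone lean on the variance that limma shares over all genes. Leaving out 1 array gave -2.68 to -1.97. The number of AP-1 genes called between genotypes, 0 of 10 as reported, was 1 in those 3 settings and 0 to 1 with 1 array left out. The number of genes called, 1 as reported, was 0 among genes of at least median signal, 2 with array weights, 32 in RO samples, 79 in D/F samples and 0 to 2 with 1 array left out. Signs turned for Fos (0.11) and Fosl1 (0.0128) after quantile normalization, and for Fos (0.11) and Fosl1 (0.0126) with arrays centred on their medians. Jund turned with array weights (0.0382). In D/F samples alone Junb (0.11), Jund (0.13), Fos (0.14), Fosl1 (0.12) and Atf3 (0.30) turned. The Fosl2 interaction of genotype and title series was -0.0202 after quantile normalization and -0.0222 after centring. With 1 array left out, the differences ran from -0.31 to 0.00965 for Junb, -0.32 to 0.0827 for Jund, -0.23 to 0.11 for Fos, -0.34 to 0.0181 for Fosl1 and -0.78 to 0.10 for Atf3. They kept their sign for Fosb (-0.30 to -0.06), Fosl2 (-0.47 to -0.20), Batf (-0.68 to -0.18) and Atf2 (0.07 to 0.38). The causes were not tested. Fos, Fosb and Fosl1 lie near the array median, where signal over background limits what a difference shows.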
